A study of Mus musculus with 18 samples.

Results

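The ERK feedback inhibitors examined here are 10 genes grouped as restraints on signalling through the ERK MAP kinases. These genes are Dusp1, Dusp4, Dusp5, Dusp6, Spry1, Spry2, Spry4, Spred1, Spred2 and Phlda1. They were chosen by symbol, with earlier results of these data known. All 10 were found among the 18264 genes of an RNA sequencing table. It covers fibroblasts from neonatal mouse ventricles (NVCFs), which build the matrix of the heart. The 18 libraries form 6 groups of 3. In the knockdown arm, cells carried a small interfering RNA against the transcription factor Foxm1 together with the hypertrophic peptide hormone angiotensin II (si-Foxm1+Ang-II), angiotensin II (Ang-II), the Foxm1 siRNA (si-Foxm1) or a control siRNA (si-NC). In the overexpression arm, cells overexpressed Foxm1 (OE-Foxm1) or served as its control (OE-NC). The labels give no hormone dose or time and no overexpression vector, and they do not say whether the Ang-II cells also received control siRNA. Nothing in the labels says that libraries of a group came from separate cultures, so the p-values measure the spread between these libraries, which may be technical.

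Growth factor receptors and the angiotensin receptor activate ERK through RAS and a cascade of kinases, and active ERK induces genes whose products switch the pathway off again. Dual-specificity phosphatases (Dusp genes) remove phosphate from MAP kinases. Sprouty (Spry) and SPRED proteins act further up, at the level of receptors and RAS. The mRNAs of some of these inhibitors are therefore commonly read as a gauge of ERK output. ERK activity itself is not part of these RNA data. In fibroblasts the pathway drives proliferation and takes part in the response to angiotensin.

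RefSeq promoter windows, from 250 bases before to 50 after the transcription start on GRCm38.p6, were at hand for 7 of the 10 genes, all but Dusp4, Spry4 and Phlda1. Those of Dusp5, Dusp6 and Dusp1 are printed because Dusp5 and Dusp6 were called in all 5 comparisons between groups below, while Dusp1 was called in only 2 of them. Dusp5 and Dusp6 moved alike, higher with the Foxm1 siRNA and lower with angiotensin and in OE-Foxm1. Capitals mark matches, on either strand, to the cAMP response element (CRE, TGACGTCA), its core TGACGT, or the CArG box, the serum response element core. The Dusp5 window lies at chr19:53528895-53529194 on the plus strand, the Dusp6 window at chr10:99262981-99263280 on the plus strand, and the Dusp1 window at chr17:26508423-26508722 on the minus strand.
Dusp5: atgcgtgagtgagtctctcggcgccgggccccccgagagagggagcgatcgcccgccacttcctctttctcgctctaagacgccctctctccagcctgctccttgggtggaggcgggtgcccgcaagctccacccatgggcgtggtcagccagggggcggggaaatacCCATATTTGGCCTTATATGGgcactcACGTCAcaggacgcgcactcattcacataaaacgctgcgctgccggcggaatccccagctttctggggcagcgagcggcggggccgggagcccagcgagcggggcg
Dusp6: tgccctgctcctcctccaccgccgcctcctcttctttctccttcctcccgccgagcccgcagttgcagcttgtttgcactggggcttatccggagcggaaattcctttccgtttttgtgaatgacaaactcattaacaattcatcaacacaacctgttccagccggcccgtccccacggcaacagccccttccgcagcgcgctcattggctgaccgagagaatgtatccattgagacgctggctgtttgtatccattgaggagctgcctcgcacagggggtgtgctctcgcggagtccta
Dusp1: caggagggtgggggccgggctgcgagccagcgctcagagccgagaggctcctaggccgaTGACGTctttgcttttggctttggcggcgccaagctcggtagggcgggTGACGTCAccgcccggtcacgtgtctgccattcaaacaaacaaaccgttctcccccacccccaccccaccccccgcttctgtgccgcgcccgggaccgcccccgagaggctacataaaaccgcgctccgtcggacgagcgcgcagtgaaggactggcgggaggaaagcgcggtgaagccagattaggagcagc

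Counted from the transcription start, CArG boxes begin at positions -82 (CCATATTTGG) and -72 (CCTTATATGG) of the Dusp5 window, and a CRE core on the opposite strand begins at -56. The Dusp1 window holds a full CRE at -143, which includes the core on both strands, and a further core at -191. Of 32851 windows of the same length, 1.63% held a CArG box, 1.79% a full CRE and 7.51% a CRE core. The window of Spred2 held a CRE core at -52, and those of Dusp6, Spry1, Spry2 and Spred1 held none of these letters. None of the 7 windows held the ETS letters CCGGAAG (8.86% of windows), the AP-1 letters TGANTCA (7.81%) or the forkhead letters TGTTTAC (3.65%), searched on both strands. A match is a description of the letters in this window only.

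Levels are given in FPKM, fragments normalised to gene length and library total, and fold changes with their standard error as differences of log2(FPKM+1), which understates changes of genes at low FPKM. A gene was called when its limma p, adjusted by Benjamini-Hochberg over all genes tested, was under 0.05. Libraries held 14988993 to 19343343 fragments, and the 10 genes had between 133 and 3285 fragments in a library. Ang-II replicate 3 stood apart from its group, with a mean chi-square per gene of 5.03 and 5.46 against the other Ang-II libraries, where all other pairs within groups gave 1.69 to 2.88 and counting error alone gives 1. Foxm1 fell to 5.97 ± 0.79 FPKM in si-Foxm1, against 10.1 ± 0.4 FPKM in si-NC (-0.68 ± 0.10, adjusted p = 4.33e-05, limma). It averaged 3.32 ± 0.26 FPKM in si-Foxm1+Ang-II and 4.64 ± 0.88 FPKM in Ang-II, and 455 ± 49 FPKM in OE-Foxm1 and 16.6 ± 0.8 FPKM in OE-NC (SD, n = 3 each). All 10 fibroblast markers were detected, at a summed 2633 to 4029 FPKM per library, while 14 cardiomyocyte markers summed to between 5481 and 14299 FPKM and none of either list was at 0 in all libraries. Endothelial markers summed to 159 to 227 FPKM, smooth muscle and pericyte markers to 233 to 333 FPKM. The RNA is from bulk cultures, in which fewer cells of a type and less RNA per cell cannot be told apart.

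Spry1, which encodes a Sprouty inhibitor of receptor signalling, and Dusp4, a nuclear phosphatase of MAP kinases, had the highest levels per kilobase, with means over all libraries of 61.1 and 59.5 FPKM. Dusp1, the nuclear phosphatase first known as MKP-1, averaged 25.1 FPKM, Phlda1, a pleckstrin homology-like domain protein, 19.4 FPKM, Spred1 16.9 FPKM and Dusp6, the cytoplasmic phosphatase of ERK, 12 FPKM. Spry2 averaged 10.4 FPKM, the nuclear ERK phosphatase Dusp5 6.23 FPKM, Spry4 4.27 FPKM and Spred2 1.38 FPKM. This order leans on the gene lengths the authors used. For Spred2, the length behind the values was 37.9 kb, 8.21 times the 4.62 kb of exons in GENCODE M21, and for Spry2 and Spry4 it was 2.13 and 2.18 times the exon length. The ratio of a gene's FPKM between groups does not depend on that length, but log2(FPKM+1) does: for Spred2 at its low FPKM, the fold changes below are smaller than those from voom on rebuilt counts. The strand setting of the counting is not stated, and genes annotated on the opposite strand overlap Dusp1, Dusp5, Spry1, Spry4 and Phlda1.

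**Figure D1:**
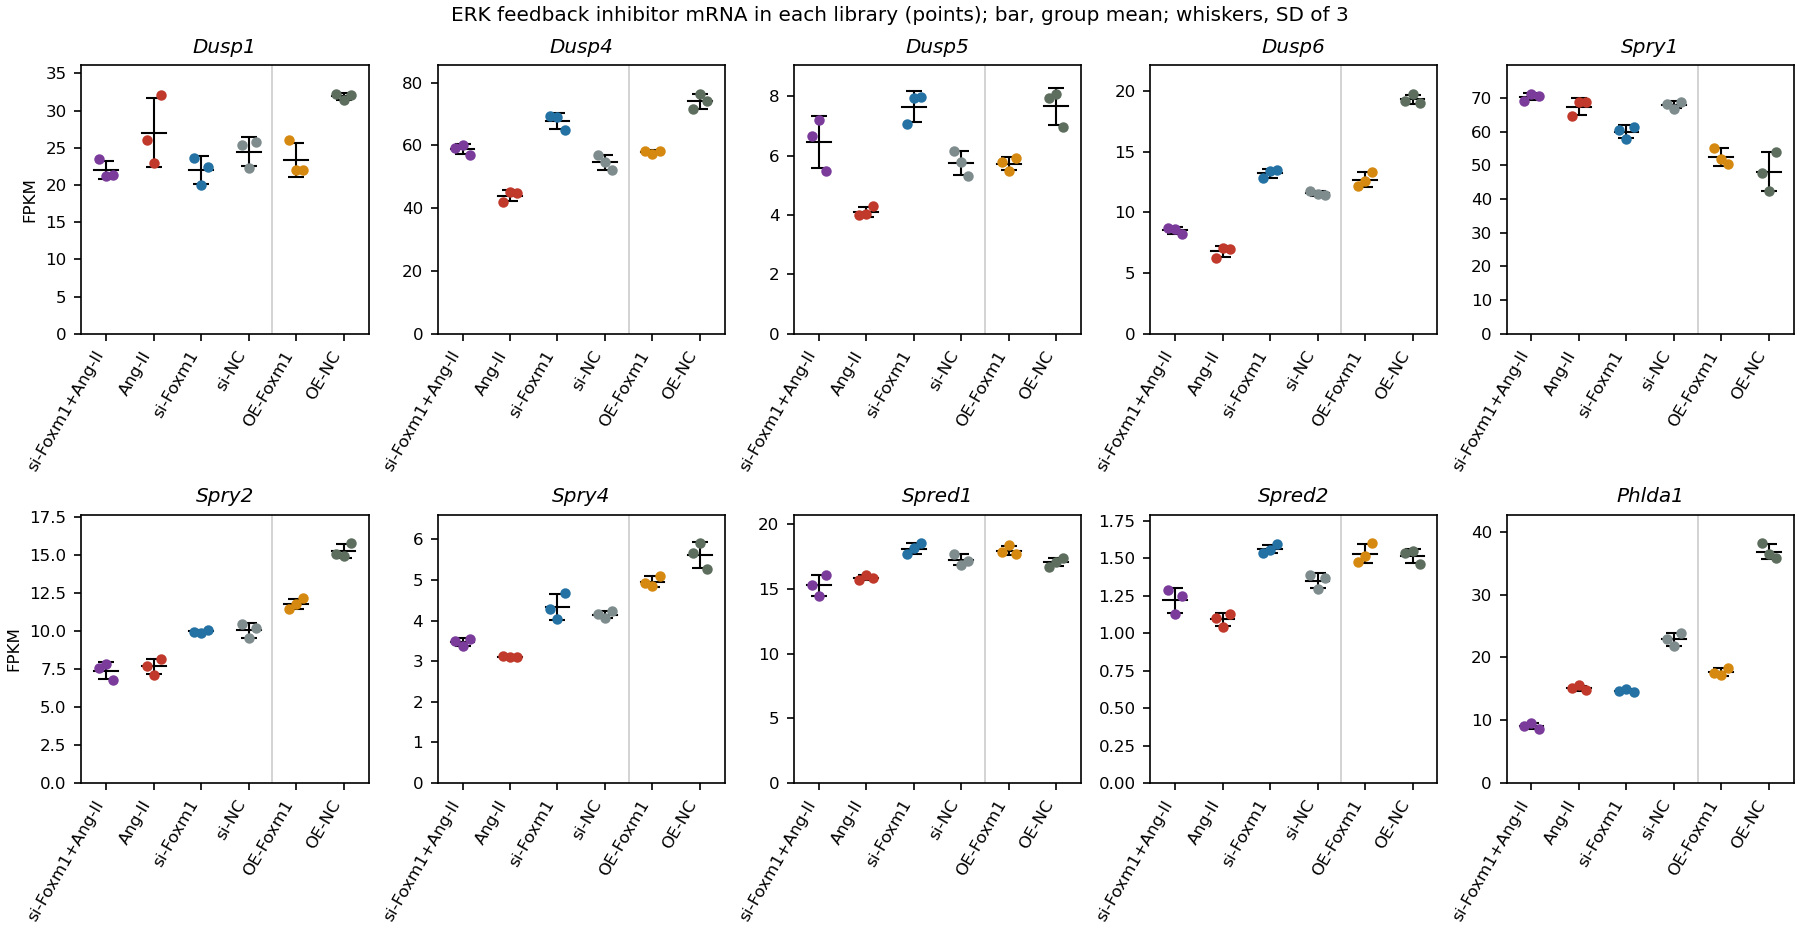
FPKM of each of the 10 genes in every library, by group, with the group mean as a bar and the SD of 3 libraries as whiskers; the vertical line divides the knockdown arm from the overexpression arm. Phlda1 ranged from 8.60 to 38.2 FPKM and Spred1 only from 14.5 to 18.5 FPKM.

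Phlda1 varied most across the 6 groups. Its highest group mean was 4.04 times its lowest, compared with 2.84 times for Dusp6, 2.07 times for Spry2, 1.86 times for Dusp5, 1.80 times for Spry4 and 1.68 times for Dusp4. The other 4 genes stayed within 1.46 times, down to 1.19 times for Spred1. OE-NC was the highest group for Dusp1, Dusp4, Dusp5, Dusp6, Spry2, Spry4 and Phlda1. Ang-II was the lowest for Dusp4, Dusp5, Dusp6, Spry4 and Spred2, and si-Foxm1+Ang-II for Spry2, Spred1 and Phlda1. Spry1 differed from these, with its highest mean in si-Foxm1+Ang-II and its lowest in OE-NC.

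Setting si-Foxm1 cells against si-NC cells asks how the inhibitors stood after Foxm1 knockdown without hormone. Dusp4, Dusp5, Dusp6 and Spred2 rose and Spry1 and Phlda1 fell, so that 6 of 10 genes were called, 4 higher and 2 lower. Among all 11180 genes tested, 65.7% were called, 48.5% higher and 17.2% lower, and the median log2 fold change was 0.11 over all genes and 0.06 over the 10. The share of the 10 that was called was thus near that of all genes. The same 6 members were those whose libraries did not overlap between the groups, beside 71.0% of all genes, 51.8% higher and 19.2% lower.

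Among the phosphatases, Dusp4 was at 69.2, 69.1 and 64.8 FPKM in si-Foxm1 libraries, against 57.0, 54.7 and 52.3 FPKM in si-NC libraries. Every si-Foxm1 library lay above every si-NC library, a log2 fold change of 0.30 ± 0.04 (adjusted p = 1.92e-05, limma). Dusp5 was at 7.06, 7.94 and 7.98 FPKM in si-Foxm1, against 6.15, 5.80 and 5.33 FPKM in si-NC, again without overlap (0.36 ± 0.08, adjusted p = 0.00109, limma). Dusp6 was at 12.8, 13.4 and 13.5 FPKM in si-Foxm1, against 11.8, 11.5 and 11.4 FPKM in si-NC, which is a small shift but clear of the spread in either group (0.18 ± 0.04, adjusted p = 0.00297, limma). Dusp1 was not called, at 23.7, 19.9 and 22.4 FPKM in si-Foxm1 and 25.4, 22.3 and 25.7 FPKM in si-NC, and its libraries overlapped (-0.15 ± 0.10, 95% interval -0.35 to 0.06). The rises of Dusp4 and Dusp5 were above the median of all genes, while that of Dusp6 was close to it.

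Phlda1 gave the largest change of the 10. Its level was 14.6, 14.9 and 14.6 FPKM in si-Foxm1 libraries, against 23.0, 21.9 and 23.9 FPKM in si-NC libraries. The groups lay far apart compared with their spread, with a ratio of means of 0.64 and a log2 fold change of -0.61 ± 0.04 (adjusted p = 5.30e-08, limma). It ranked 209 from the lowest of 11180 genes. Spry1 was at 60.5, 57.9 and 61.6 FPKM in si-Foxm1, against 68.1, 66.9 and 69.0 FPKM in si-NC, with every si-Foxm1 library below every si-NC library (-0.18 ± 0.03, adjusted p = 2.67e-04, limma). Spry2 (-0.01 ± 0.06), Spry4 (0.05 ± 0.05) and Spred1 (0.07 ± 0.04) were not called. Spred2, which like Spred1 encodes a RAS-pathway inhibitor with a Sprouty-like domain, rose by 0.13 ± 0.05 (adjusted p = 0.0388, limma) and by 0.21 with voom, a limma call that was lost when any 1 library of either group was left out (adjusted p 0.055 to 0.117).

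Scaling changed several calls. Median-of-ratios scaling moved the median of all genes to 0.00 and changed the split of all called genes from 5418 higher and 1924 lower to 2954 higher and 3273 lower. With it Dusp6 (0.06, adjusted p = 0.271, limma) and Spred2 (0.05, adjusted p = 0.429) lost their calls, while Dusp1 was called lower (-0.27, adjusted p = 0.0230), Dusp4 kept its call at 0.18 and Spry1 at -0.31, and the median of the 10 was -0.056. Under the deposited scaling, 12 of 14 cardiomyocyte markers were lower in the same comparison and 1 was higher. The list summed to 7174 to 7625 FPKM in si-Foxm1 and 13277 to 14299 FPKM in si-NC. Of the macrophage and leukocyte markers, 9 of 9 tested were lower (129 to 160 FPKM in si-Foxm1 and 254 to 260 FPKM in si-NC). Endothelial markers were higher for 5 of 8 genes (219 to 227 FPKM in si-Foxm1 and 188 to 191 FPKM in si-NC). Of all genes, 48.5% were higher and 17.2% lower. Fibroblast markers were lower for 3 of 10 genes and higher for 2 (2782 to 2896 FPKM in si-Foxm1 and 2851 to 3005 FPKM in si-NC). Smooth muscle and pericyte markers were lower for 4 of 7 genes (275 to 291 FPKM in si-Foxm1 and 307 to 319 FPKM in si-NC). Their part in the result was not tested.

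Setting Ang-II cells against si-NC cells asks how the hormone group differed from control cells. Feedback inhibitor mRNA was lower in the Ang-II group: 8 of the 10 genes fell and none rose, with Dusp6 and Phlda1 changed most. Whether these cells also received control siRNA, as si-NC cells did, is not stated. Of all 11180 genes, 44.5% were called, 29.2% lower and 15.2% higher. The median of the 10 was -0.32, beside -0.03 over all genes. Because the 10 were chosen with earlier results of these data known, their share beside that of all genes is a description only. No gene of the 10 was higher at an unadjusted p under 0.05 either, with limma or with voom. The libraries of these 8 did not overlap between the groups, beside 52.9% of all genes, 33.9% lower and 19.1% higher. Without Ang-II replicate 3 the count was also 8 lower, beside 3323 lower and 1630 higher of all 11184 genes.

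Dusp6 was at 6.28, 7.10 and 7.02 FPKM in Ang-II libraries, against 11.8, 11.5 and 11.4 FPKM in si-NC libraries. All Ang-II libraries lay far below all si-NC libraries, a ratio of means of 0.59 and a log2 fold change of -0.69 ± 0.04 (adjusted p = 5.77e-08, limma). Dusp5 was at 4.00, 4.02 and 4.31 FPKM in Ang-II, against 6.15, 5.80 and 5.33 FPKM in si-NC (-0.40 ± 0.08, adjusted p = 7.61e-04, limma). Dusp4 was at 41.9, 45.1 and 45.0 FPKM in Ang-II, against 57.0, 54.7 and 52.3 FPKM in si-NC (-0.31 ± 0.04, adjusted p = 3.10e-05, limma). The groups did not overlap for either gene. Dusp1 stood apart from the other 3, at 26.0, 23.0 and 32.1 FPKM in Ang-II and 25.4, 22.3 and 25.7 FPKM in si-NC (0.13 ± 0.10, 95% interval -0.08 to 0.34). Its Ang-II libraries had the widest relative spread of any group among the 10 genes, with replicate 3 above the other libraries of the arm, and without it the difference was 0.00.

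Phlda1 was at 15.1, 15.5 and 14.7 FPKM in Ang-II libraries, against 23.0, 21.9 and 23.9 FPKM in si-NC libraries, with no overlap (-0.57 ± 0.04, adjusted p = 2.09e-07, limma). Of the Sproutys, Spry2 was at 7.70, 7.13 and 8.16 FPKM in Ang-II, against 10.4, 9.51 and 10.2 FPKM in si-NC (-0.35 ± 0.06, adjusted p = 1.54e-04, limma). Spry4 was at 3.12, 3.12 and 3.09 FPKM in Ang-II, against 4.15, 4.06 and 4.22 FPKM in si-NC (-0.32 ± 0.05, adjusted p = 8.39e-05, limma). Both were lower in every Ang-II library than in any si-NC library. Spry1 did not follow them, at 64.7, 68.8 and 69.0 FPKM in Ang-II and 68.1, 66.9 and 69.0 FPKM in si-NC (-0.01 ± 0.03, 95% interval -0.08 to 0.06). Spred1 fell by 0.11 ± 0.04 (adjusted p = 0.0255, limma) and Spred2 by 0.17 ± 0.05 (adjusted p = 0.0138, limma) on the log2 scale. The ratio of means of Spred2 was 0.81, close to that of Dusp4 (0.80), and voom gave Spred2 -0.31.

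Median-of-ratios scaling changed the split of all called genes from 1702 higher and 3268 lower to 2481 higher and 2424 lower, and with it 7 of the 10 were lower, without Spred1 (-0.07, adjusted p = 0.186, limma). Quantile normalization left 6 lower, ending the calls of both Spred1 (-0.07, adjusted p = 0.174) and Spred2 (-0.08, adjusted p = 0.219). Spred1 also lost its call without Ang-II replicate 1 or si-NC replicates 1 or 3, and Spred2 without Ang-II replicate 2. Beside these changes, 13 of 14 cardiomyocyte markers were lower and 1 higher, where 29.2% of all genes were lower and 15.2% higher. The list summed to 9877 to 10818 FPKM in Ang-II and 13277 to 14299 FPKM in si-NC. Macrophage and leukocyte markers were higher for 5 of 9 genes (310 to 339 FPKM in Ang-II and 254 to 260 FPKM in si-NC). Endothelial markers were lower for 6 of 8 genes (159 to 161 FPKM in Ang-II and 188 to 191 FPKM in si-NC). Smooth muscle and pericyte markers were higher for 3 of 7 genes and lower for 3 (296 to 333 FPKM in Ang-II and 307 to 319 FPKM in si-NC). Summed fibroblast markers were higher (3914 to 4029 FPKM in Ang-II and 2851 to 3005 FPKM in si-NC), although 5 of the 10 fell and 3 rose. Foxm1 itself fell (-0.99 ± 0.10, adjusted p = 2.63e-06, limma). The part of these changes in the result was not tested.

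Setting si-Foxm1+Ang-II cells against Ang-II cells asks how Foxm1 knockdown changed the inhibitors in hormone-treated cells. Dusp4, Dusp5, Dusp6 and Spry4 rose, and Phlda1 and Dusp1 fell, so 6 of 10 genes were called, 4 higher and 2 lower. Of all genes tested, 61.4% were called, 44.0% higher and 17.4% lower. The median of the 10 was 0.07 and that of all genes 0.09. As without hormone, the share called was near that of all genes. Libraries did not overlap for 6 members (Dusp4, Dusp5, Dusp6, Spry1 and Spry4 higher and Phlda1 lower), beside 64.5% of all genes, 45.8% higher and 18.7% lower. Without Ang-II replicate 3, 3 members were called higher and 1 lower, beside 4835 higher and 1813 lower of all 11184 genes.

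Dusp5 was at 6.67, 7.22 and 5.50 FPKM in si-Foxm1+Ang-II libraries, against 4.00, 4.02 and 4.31 FPKM in Ang-II libraries, a ratio of means of 1.57 (0.54 ± 0.08, adjusted p = 4.11e-05, limma). Its rank was 418 from the highest of 11180 genes. Dusp4 was at 59.2, 60.1 and 57.0 FPKM in si-Foxm1+Ang-II, against 41.9, 45.1 and 45.0 FPKM in Ang-II (0.41 ± 0.04, adjusted p = 1.41e-06, limma). Dusp6 was at 8.70, 8.67 and 8.22 FPKM in si-Foxm1+Ang-II, against 6.28, 7.10 and 7.02 FPKM in Ang-II (0.29 ± 0.04, adjusted p = 7.51e-05, limma). For each of these 3 phosphatases the groups did not overlap. For Dusp4 and Dusp5 the doubly treated cells were also above si-NC in mean level, at 58.8 and 6.46 FPKM beside 54.6 and 5.76 FPKM, and Dusp6 was below it, at 8.53 FPKM beside 11.6 FPKM, differences that were not tested.

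Phlda1 was at 9.13, 9.60 and 8.60 FPKM in si-Foxm1+Ang-II, against 15.1, 15.5 and 14.7 FPKM in Ang-II (-0.68 ± 0.04, adjusted p = 2.10e-08, limma). These were its lowest libraries in the study, and they lay well below all others. Spry4 was at 3.50, 3.37 and 3.55 FPKM in si-Foxm1+Ang-II, against 3.12, 3.12 and 3.09 FPKM in Ang-II (0.12 ± 0.05, adjusted p = 0.0380, limma). Dusp1 was at 23.4, 21.2 and 21.4 FPKM in si-Foxm1+Ang-II, against 26.0, 23.0 and 32.1 FPKM in Ang-II (-0.27 ± 0.10, adjusted p = 0.0245, limma). The Dusp1 libraries overlapped, and without Ang-II replicate 3 its change was -0.15 (adjusted p = 0.113, limma). Spry1 (0.06 ± 0.03), Spry2 (-0.05 ± 0.06), Spred1 (-0.05 ± 0.04) and Spred2 (0.09 ± 0.05) were not called. With voom, 5 members were called higher, the added gene being Spred2 (0.16, adjusted p = 0.0119). Of all 11180 genes, voom called 4937 higher and 1990 lower.

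The call of Spry4 was lost without any of the Ang-II libraries (adjusted p 0.0714 to 0.0730, limma) or without si-Foxm1+Ang-II replicates 1 or 3 (0.0887 and 0.102), and that of Dusp1 without si-Foxm1+Ang-II replicates 2 or 3 (0.0731 and 0.0699). Median-of-ratios scaling changed the split of all called genes from 4918 higher and 1942 lower to 3082 higher and 3116 lower, and then 3 members were higher, without Spry4, and 4 lower, with Spry2 (-0.14, adjusted p = 0.0393) and Spred1 (-0.15, adjusted p = 0.00565) added, with a median of -0.0026 over the 10. Under the deposited scaling, cardiomyocyte markers were lower for 12 of 14 genes and higher for 2. The list summed to 5481 to 5655 FPKM in si-Foxm1+Ang-II and 9877 to 10818 FPKM in Ang-II. Of the macrophage and leukocyte markers, 9 of 9 were lower (128 to 148 FPKM in si-Foxm1+Ang-II and 310 to 339 FPKM in Ang-II). Endothelial markers were higher for 5 of 8 genes, beside 44.0% of all genes, and lower for 1, beside 17.4%. They summed to 187 to 199 FPKM in si-Foxm1+Ang-II and 159 to 161 FPKM in Ang-II. Fibroblast markers were lower for 3 of 10 genes and higher for 2 (3813 to 3914 FPKM in si-Foxm1+Ang-II and 3914 to 4029 FPKM in Ang-II). Smooth muscle and pericyte markers were lower for 4 of 7 genes (279 to 291 FPKM in si-Foxm1+Ang-II and 296 to 333 FPKM in Ang-II). Their part in the result was not tested.

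**Figure D2:**
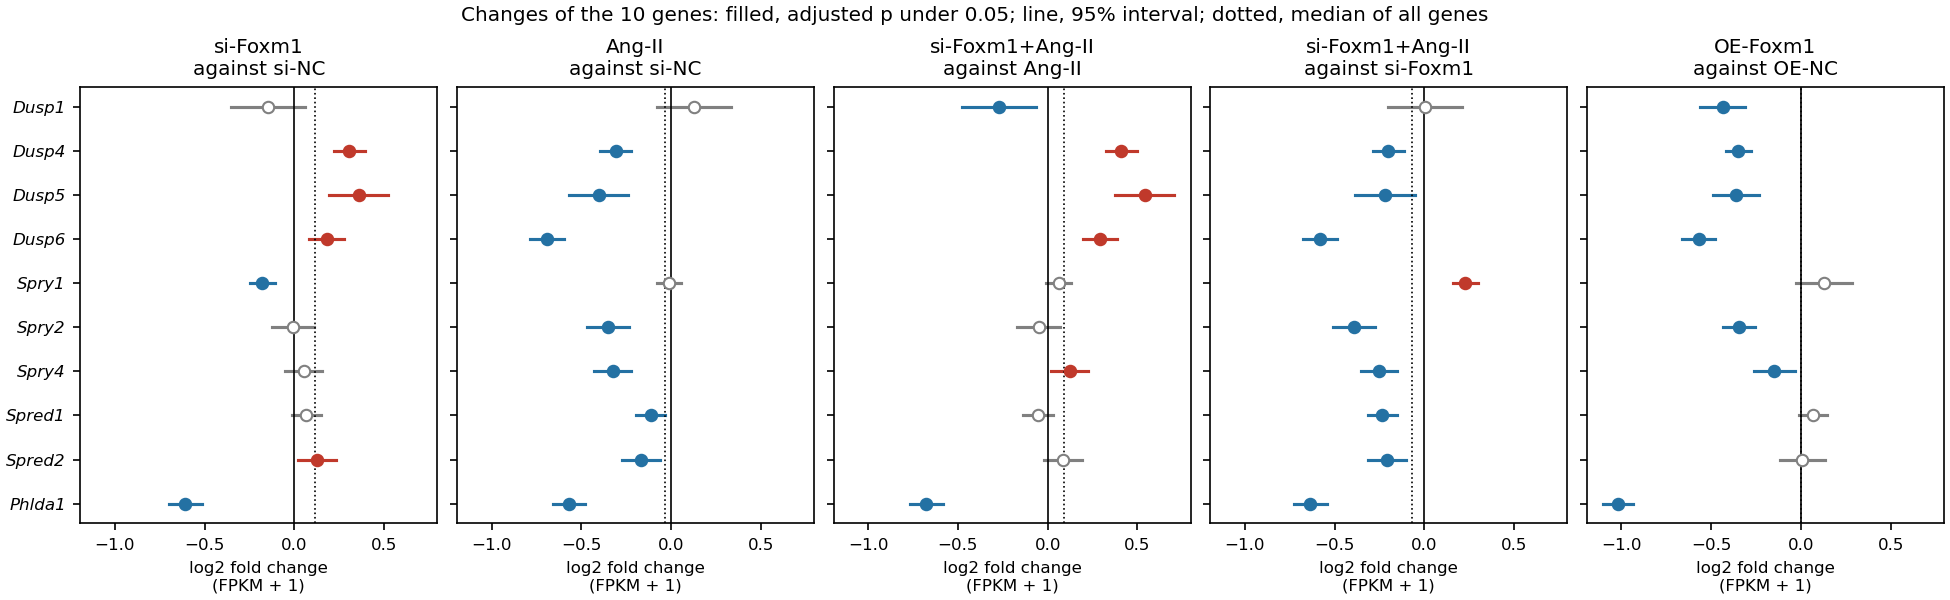
Log2 fold change of each gene in 5 comparisons, as points with 95% intervals; filled points passed the test, in red where higher and blue where lower, and the dotted line is the median of all genes tested. Phlda1 is lower in all 5, from -0.57 to -1.02, while Dusp4, Dusp5 and Dusp6 are higher with the Foxm1 siRNA and lower with angiotensin and in OE-Foxm1.

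Setting si-Foxm1+Ang-II cells against si-Foxm1 cells gives the hormone's effect in knockdown cells. Of the 10 genes, 8 fell and Spry1 rose, and of all genes tested 47.5% were called, 34.6% lower and 12.9% higher. The median of the 10 was -0.23 and that of all genes -0.07. Libraries did not overlap for 8 members, 7 lower and Spry1 higher, beside 57.0% of all genes, 41.3% lower and 15.8% higher. Phlda1 (-0.64 ± 0.04, adjusted p = 9.17e-08, limma), Dusp6 (-0.58 ± 0.04, adjusted p = 3.18e-07) and Spry2 (-0.39 ± 0.06, adjusted p = 6.03e-05) changed most. Dusp6 was at 8.70, 8.67 and 8.22 FPKM in si-Foxm1+Ang-II libraries, against 12.8, 13.4 and 13.5 FPKM in si-Foxm1 libraries, with no overlap. Spry2 was at 7.53, 7.84 and 6.75 FPKM in si-Foxm1+Ang-II, against 9.96, 9.87 and 10.1 FPKM in si-Foxm1, again with every hormone-treated library lower. Spry1 was the exception, higher by 0.23 ± 0.03 (adjusted p = 6.04e-05, limma). Spry4 (-0.25 ± 0.05), Spred1 (-0.23 ± 0.04), Dusp5 (-0.22 ± 0.08), Spred2 (-0.21 ± 0.05, and -0.36 with voom) and Dusp4 (-0.20 ± 0.04) also fell, and Dusp1 gave 0.00 ± 0.10 (95% interval -0.20 to 0.21). The call of Dusp5 (adjusted p = 0.0302, limma) was lost under median-of-ratios scaling (-0.15, adjusted p = 0.129), without si-Foxm1+Ang-II replicate 3 (-0.12, adjusted p = 0.150) and without si-Foxm1 replicates 2 or 3 (0.0952 and 0.0944). That scaling changed the split of all called genes from 1441 higher and 3873 lower to 2466 higher and 2267 lower. The call of Spred2 was lost under quantile normalization (-0.09, adjusted p = 0.156, limma), and Dusp4 was -0.12 under median-of-ratios scaling, still called. Beside these changes, 11 of 14 cardiomyocyte markers were lower (5481 to 5655 FPKM summed in si-Foxm1+Ang-II and 7174 to 7625 FPKM in si-Foxm1). Endothelial markers were lower for 6 of 8 genes (187 to 199 FPKM in si-Foxm1+Ang-II and 219 to 227 FPKM in si-Foxm1). Macrophage and leukocyte markers were higher for 2 of 9 genes and lower for 1. Smooth muscle and pericyte markers were higher for 3 of 7 genes and lower for 3. Fibroblast markers were lower for 6 of 10 genes and higher for 3, with a summed 3813 to 3914 FPKM in si-Foxm1+Ang-II and 2782 to 2896 FPKM in si-Foxm1. Their part in the result was not tested.

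The interaction, the siRNA effect under hormone minus that without it, was called for Spry1 alone among the 10, higher, beside 0.921% of all genes, 0.403% higher and 0.519% lower. No member was called lower by limma or voom, and 1 had an unadjusted p under 0.05 in that direction with each. Spry1 was at 69.3, 71.2 and 70.7 FPKM in si-Foxm1+Ang-II, against 64.7, 68.8 and 69.0 FPKM in Ang-II, and at 60.5, 57.9 and 61.6 FPKM in si-Foxm1, against 68.1, 66.9 and 69.0 FPKM in si-NC. The siRNA libraries were thus below their control without hormone and slightly above it with hormone. The difference was 0.24 ± 0.05 (adjusted p = 0.0248, limma). The call was lost with no filter on low values (adjusted p = 0.0513), with all 6 groups in the fit (0.164), and without si-Foxm1+Ang-II replicates 2 or 3, si-NC replicates 1 or 3, or si-Foxm1 replicates 1 or 2 (0.0610 to 0.0746). The difference was not called for Dusp4 (0.11 ± 0.06), Dusp5 (0.18 ± 0.11), Dusp6 (0.11 ± 0.06) or Phlda1 (-0.07 ± 0.06). The 95% intervals of these were -0.02 to 0.23, -0.05 to 0.42, -0.02 to 0.25 and -0.20 to 0.06.

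The comparison of OE-Foxm1 with OE-NC asks what raised Foxm1 did to the inhibitors. They were lower in OE-Foxm1 cells: 7 of the 10 fell, namely Phlda1, Dusp6, Dusp1, Dusp5, Dusp4, Spry2 and Spry4, and none rose. Of all 11259 genes tested here, 55.1% were called, 28.0% lower and 27.1% higher. The median of the 10 was -0.35, beside -0.00 over all genes. Here too the share of the 10 is a description only, as they were chosen with earlier results known. No member was higher at an unadjusted p under 0.05 with limma, and voom on rebuilt counts called Spry1 higher (0.13, adjusted p = 0.0467). Libraries did not overlap for 8 members, the 7 that fell and Spred1, which was higher, beside 62.2% of all genes, 31.9% lower and 30.3% higher.

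Phlda1 was at 17.6, 17.2 and 18.3 FPKM in OE-Foxm1 libraries, against 38.2, 36.6 and 35.8 FPKM in OE-NC libraries. The ratio of means was 0.48 and the log2 fold change -1.02 ± 0.04 (adjusted p = 2.20e-08, limma), rank 29 from the lowest of 11259 genes. Dusp6 was at 12.2, 12.6 and 13.4 FPKM in OE-Foxm1, against 19.2, 19.8 and 19.1 FPKM in OE-NC (-0.57 ± 0.04, adjusted p = 2.22e-06, limma). For both genes the groups lay apart by several times their spread. Dusp1 was at 26.0, 22.0 and 22.1 FPKM in OE-Foxm1, against 32.2, 31.4 and 32.1 FPKM in OE-NC, without overlap (-0.44 ± 0.06, adjusted p = 1.08e-04, limma).

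Dusp5 was at 5.79, 5.49 and 5.92 FPKM in OE-Foxm1, against 7.94, 8.08 and 6.96 FPKM in OE-NC (-0.36 ± 0.06, adjusted p = 4.37e-04, limma). Dusp4 was at 58.2, 57.1 and 58.3 FPKM in OE-Foxm1, against 71.6, 76.3 and 74.3 FPKM in OE-NC (-0.35 ± 0.03, adjusted p = 8.94e-06, limma). Spry2 was at 11.5, 11.7 and 12.2 FPKM in OE-Foxm1, against 15.1, 14.9 and 15.8 FPKM in OE-NC (-0.35 ± 0.04, adjusted p = 4.82e-05, limma). In these 3 genes too every OE-Foxm1 library was below every OE-NC library. Spry4 fell by 0.15 ± 0.05 on the log2 scale, at 4.91, 4.86 and 5.11 FPKM in OE-Foxm1 and 5.65, 5.90 and 5.27 FPKM in OE-NC (adjusted p = 0.0315, limma), and lost its call without OE-Foxm1 replicates 1 or 2 or OE-NC replicates 1 or 2 (0.0752 to 0.112) and with no filter on low values (0.0575). Spred1 (0.07 ± 0.04) and Spred2 (0.01 ± 0.06) were not called.

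Spry1 was at 55.3, 51.9 and 50.3 FPKM in OE-Foxm1 and 47.9, 42.5 and 54.0 FPKM in OE-NC (0.13 ± 0.07, adjusted p = 0.149, limma), and the groups overlapped. Without OE-NC replicate 3 it was called higher (0.21, adjusted p = 0.00964). In this arm, where 27.1% of all genes were higher and 28.0% lower, 7 of 9 tested macrophage and leukocyte markers were higher and 2 lower. The list summed to 272 to 308 FPKM in OE-Foxm1 and 189 to 208 FPKM in OE-NC. Cardiomyocyte markers were higher for 9 of 14 genes and lower for 2 (8550 to 8907 FPKM in OE-Foxm1 and 7596 to 8084 FPKM in OE-NC). Endothelial markers were higher for 3 of 8 genes and lower for none (189 to 195 FPKM in OE-Foxm1 and 172 to 177 FPKM in OE-NC). Fibroblast markers were higher for 6 of 10 genes and lower for 1 (3009 to 3060 FPKM in OE-Foxm1 and 2633 to 2757 FPKM in OE-NC). Smooth muscle and pericyte markers were lower for 4 of 7 genes and higher for none (233 to 239 FPKM in OE-Foxm1 and 274 to 280 FPKM in OE-NC). The OE-NC libraries were also the smallest, with at most 16384195 fragments beside at least 17450690 in every other library. The part of markers and depth in the result was not tested.

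**Figure D3:**
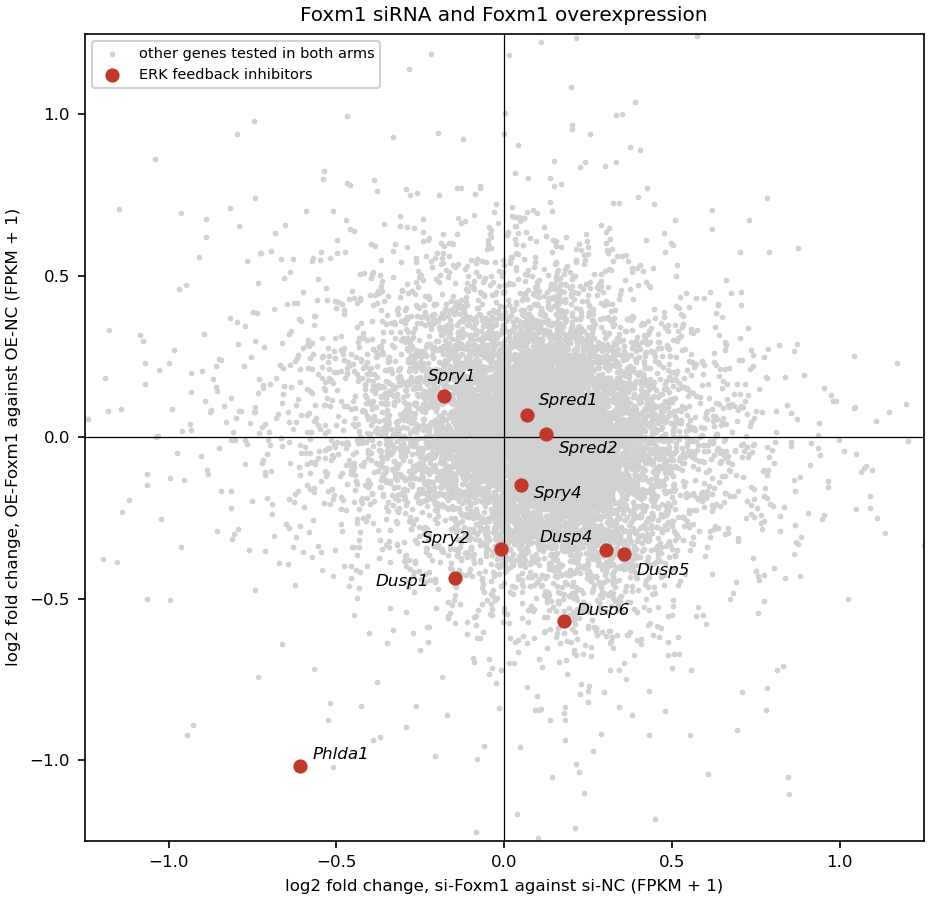
Log2 fold change with the Foxm1 siRNA (horizontal) against log2 fold change in OE-Foxm1 (vertical) for the 11021 genes tested in both arms, with the 10 inhibitors in red; 68 genes lie outside the axes. Dusp4, Dusp5 and Dusp6 sit at the lower right, higher with the siRNA and lower in OE-Foxm1, while Phlda1 sits at the lower left, lower in both.

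No library is shared between the siRNA comparison without hormone and the overexpression comparison. Dusp4, Dusp5 and Dusp6 were called higher with the siRNA and lower in OE-Foxm1, as were 1721 of the 11021 genes tested in both (15.6%), which is 32.2% of the genes higher with the siRNA and 56.0% of those lower in OE-Foxm1. Phlda1 was called lower in both, as were 443 genes (4.02%), 23.3% of those lower with the siRNA and 14.4% of those lower in OE-Foxm1. Under median-of-ratios scaling Dusp6 was not called with the siRNA. Dusp1, Spry2 and Spry4 were called lower in OE-Foxm1 and not called with the siRNA, and Spry1 and Spred2 were called with the siRNA and not in OE-Foxm1.

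The controls of the arms also differed in level. Dusp6 was at 19.3 ± 0.4 FPKM in OE-NC and 11.6 ± 0.2 FPKM in si-NC, and Phlda1 was at 36.8 ± 1.2 FPKM in OE-NC and 22.9 ± 1.0 FPKM in si-NC (SD, n = 3 each). OE-Foxm1 cells had 12.7 ± 0.6 FPKM of Dusp6 and 17.7 ± 0.6 FPKM of Phlda1. The OE-Foxm1 mean of Dusp6 was therefore nearer to si-NC than to its own control. In the order of Dusp6 levels, the neighbours si-Foxm1 and OE-Foxm1 overlapped and all other neighbours were apart. In that of Phlda1, only Ang-II and si-Foxm1 overlapped. For Dusp4, si-Foxm1+Ang-II overlapped with OE-Foxm1 alone among neighbours. For Dusp1 every group overlapped with the next in order.

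Further genes were followed in lists of ERK output genes, other feedback and phosphatase genes, and cascade components. With si-Foxm1, 8 of 17 tested ERK output genes rose and 3 fell, against 5 higher and 3 lower under median-of-ratios scaling, with a list median of 0.14 beside 0.11 over all genes, of which 48.5% were higher and 17.2% lower. The ETS factor gene Etv4 was at 4.43 ± 0.22 FPKM in si-Foxm1 and 2.27 ± 0.23 FPKM in si-NC (0.73 ± 0.07), the AP-1 subunit gene Fosl1 at 5.37 ± 0.37 FPKM in si-Foxm1 and 2.58 ± 0.53 FPKM in si-NC (0.84 ± 0.10), and the immediate-early factor gene Egr1 at 15.9 ± 0.5 FPKM in si-Foxm1 and 10.4 ± 0.4 FPKM in si-NC (0.57 ± 0.08). Emp1, a membrane protein gene, fell by 0.38 ± 0.05 on the log2 scale. Under hormone, 9 rose and 1 fell with the siRNA, among them Etv4 (0.79 ± 0.07), Fosl1 (0.85 ± 0.10), Egr1 (0.56 ± 0.08) and Myc (0.32 ± 0.05), against 5 higher and 2 lower under median-of-ratios scaling. The list median was 0.21, beside 0.09 over all genes, of which 44.0% were higher and 17.4% lower.

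With Ang-II, 6 of the 17 output genes rose and 7 fell, with a list median of -0.05 beside -0.03 over all genes, of which 15.2% were higher and 29.2% lower. Cyclin D1 (Ccnd1), which drives entry into the cell cycle, was at 21.5 ± 3.3 FPKM in Ang-II and 52.4 ± 0.6 FPKM in si-NC (-1.26 ± 0.07, adjusted p = 1.68e-08, limma). Etv4 (-0.43 ± 0.07) and the ephrin receptor gene Epha4 (-0.37 ± 0.05) fell, and Emp1 rose (0.43 ± 0.05). In si-Foxm1+Ang-II against si-Foxm1, 6 rose and 8 fell, beside 12.9% of all genes higher and 34.6% lower, with Ccnd1 lower (-1.36 ± 0.07) and the cytokine gene Lif higher (0.92 ± 0.09), at 4.65 ± 0.12 FPKM in si-Foxm1+Ang-II and 1.99 ± 0.22 FPKM in si-Foxm1. In OE-Foxm1, 4 rose and 6 fell, with a list median of -0.06, beside 27.1% of all genes higher and 28.0% lower. Fosl1 fell most, to 5.87 ± 0.47 FPKM in OE-Foxm1, against 21.5 ± 1.0 FPKM in OE-NC (-1.72 ± 0.06), with the urokinase receptor gene Plaur (-0.87 ± 0.04), the EGF receptor ligand gene Hbegf (-0.83 ± 0.05) and Myc (-0.57 ± 0.03) also lower.

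Of the other feedback and phosphatase genes, 10 were tested in the knockdown arm, where 3 rose and 3 fell with si-Foxm1 (3 higher and 5 lower under median-of-ratios scaling). Of all genes, 48.5% were higher and 17.2% lower in that comparison. In the overexpression arm 12 were tested, of which 1 rose and 7 fell, with a list median of -0.20. All genes there had a median of -0.00, with 27.1% higher and 28.0% lower. With Ang-II, 1 of the 10 tested rose, 2 fell and 7 were not called. The list median there was -0.05, beside -0.03 over all genes, of which 15.2% were higher and 29.2% lower. Errfi1, an inhibitor of the EGF receptor, rose by 0.49 ± 0.05 with si-Foxm1 and fell by 0.63 ± 0.06 in OE-Foxm1 on the log2 scale. The phosphatase gene Dusp16 rose by 0.40 ± 0.05 with si-Foxm1 and by 0.33 ± 0.05 with the siRNA under hormone, and fell by 0.39 ± 0.05 with Ang-II. The phosphatase genes Dusp8 (-0.62 ± 0.06) and Dusp10 (-0.47 ± 0.07) fell in OE-Foxm1. Lrig1, another receptor inhibitor gene, rose with si-Foxm1 (0.42 ± 0.04) and fell in OE-Foxm1 (-0.27 ± 0.05). Cbl, a ubiquitin ligase gene that acts on receptors, fell with the siRNA without hormone (-0.22 ± 0.04) and with it (-0.20 ± 0.04), as did the receptor inhibitor gene Il17rd under hormone (-0.30 ± 0.05). Cblb, a relative of Cbl, rose with Ang-II (0.23 ± 0.04), where Dusp8 fell (-0.34 ± 0.06).

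**Figure D4:**
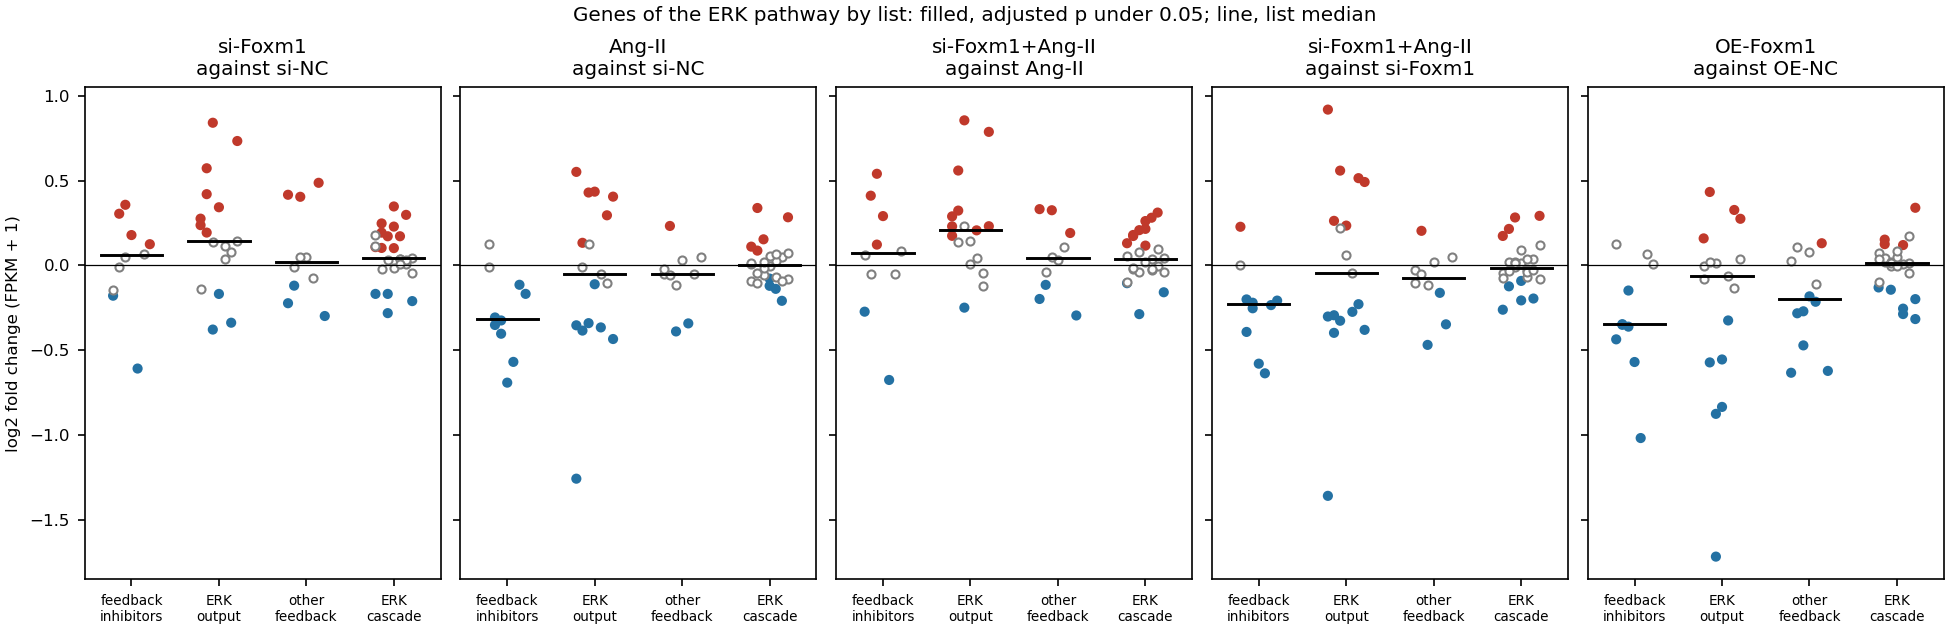
Log2 fold change of each tested gene of 4 gene lists in 5 comparisons. Filled points passed the test, red higher and blue lower, and the bar is the list median. The feedback inhibitors have medians of -0.32 with Ang-II and -0.35 in OE-Foxm1. Those of the other feedback genes are -0.05 and -0.20, and those of the ERK output genes -0.05 and -0.06. The cascade components have medians near 0 throughout.

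Cascade components, the adaptors, RAS regulators and kinases themselves, shifted by small amounts. With si-Foxm1, 10 of 26 rose and 4 fell under the deposited scaling, which median-of-ratios scaling turned to 4 higher and 9 lower. The share higher was below that of all genes (48.5%) and the share lower near it (17.2%). The adaptor gene Gab1 rose by 0.35 ± 0.04 on the log2 scale, while the scaffold gene Shoc2 fell by 0.28 ± 0.04. With Ang-II 5 rose and 4 fell, beside 15.2% of all genes higher and 29.2% lower. The kinase genes Braf (0.34 ± 0.04) and Map2k1 (0.15 ± 0.03) were among those higher. Mapk3, which encodes an ERK MAP kinase, was among those lower (-0.21 ± 0.05). In OE-Foxm1 4 rose and 6 fell, beside 27.1% of all genes higher and 28.0% lower. Those that fell included the RAS GTPase-activating genes Rasa1 (-0.29 ± 0.04) and Nf1 (-0.32 ± 0.05). The medians of the cascade were 0.04 with si-Foxm1, 0.00 with Ang-II and 0.01 in OE-Foxm1. Neither the cascade nor the output or other feedback genes had a called interaction by limma or voom, and 4 cascade, 4 output and 1 other feedback genes had an unadjusted p under 0.05 in limma, against 4, 6 and 2 in voom.

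The genes whose log2(FPKM+1) followed each inhibitor most closely over the 18 libraries, among 11235 genes, were taken as a description. Akap1 followed Dusp4 (Pearson r = 0.986), Tfec (0.985) and Nes (0.985) followed Dusp6, and Rab5c followed Dusp5 (0.955). Asb11 (0.975) and Fhl1 (0.974) followed Phlda1. Cnot9 followed Spry2 (0.983), Raet1e (0.985) and Rrm2 (0.984) followed Spry4, and Vamp5 followed Spry1 (0.971). Hvcn1 followed Spred2 (0.969) and Selenop followed Spred1 (0.921). Dusp1 had the weakest nearest gene, Klhl21 (0.878). No gene of the 10 was among the 3 nearest of another. The libraries share 6 treatments, a depth gap and shifts of cell type markers, so the 18 points are not independent.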

How the data were processed

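RNA sequencing of 18 libraries in 6 groups was taken from a deposited table of FPKM with a column per library. Per the labels' protocols, RNA was extracted with the mirVana kit, kept at a RIN of at least 7 and made into TruSeq stranded mRNA libraries. Reads were handled with fastp, HISAT2 and HTSeq on mm39, per the submitters' processing notes, which name no versions. The annotation, gene lengths and strand setting are not stated there. Titles gave groups and replicate numbers.

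Values of log2(FPKM+1) were fitted in R 4.3.3 with limma 3.58.1 (eBayes, mean-variance trend), separately for the 12 knockdown and the 6 overexpression libraries. Testing covered genes whose FPKM averaged 1 or more in a fit (11180 and 11259), with Benjamini-Hochberg adjustment over all of them. All 10 members passed this filter. Ratios between libraries gave whole fragment counts within 0.02 for all 17960 genes above 0, which served as depth and for a voom alternative. Scripts were tested on simulated data. Alternatives changed the pseudocount (0.1), the filter (0.1 FPKM, or none), the scaling (quantile or median-of-ratios), the groups in a fit, the model (voom, or a replicate block) and, in turn, left out each library.

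Named genes were Foxm1, the members, up to 4 called genes with the smallest p per pathway list and comparison, and the 3 genes nearest to each member, of which those with the highest correlations are given. Some of the genes under this rule are not reported here. Members and lists were chosen with earlier results of these data known. Promoter windows are RefSeq's (GRCm38.p6), a different build from the authors', and were used for sequence only.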

Additional observations from a re-analysis of the deposited data

Results flagged for a closer look

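The siRNA effect on Spry1 differed between hormone-treated and untreated cells. The difference was 0.24 ± 0.05 on the log2 scale (adjusted p = 0.0248, limma). The siRNA effect was 0.06 ± 0.03 with Ang-II and -0.18 ± 0.03 without it. Both effects use 3 libraries against 3, and over the alternatives the adjusted p of the difference ran from 0.00875 to 0.164.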

How the results depend on the processing

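Over all alternatives run for them, the calls of Dusp4, Dusp5, Spry1 and Phlda1 with si-Foxm1 kept direction and significance, as did those of Dusp4, Dusp5, Dusp6, Spry2, Spry4 and Phlda1 with Ang-II, of Dusp4, Dusp5, Dusp6 and Phlda1 in si-Foxm1+Ang-II against Ang-II, and of Dusp1, Dusp4, Dusp5, Dusp6, Spry2 and Phlda1 in OE-Foxm1. Quantile normalization and median-of-ratios scaling each left 2 members higher with si-Foxm1 and gave 4 lower in si-Foxm1+Ang-II against Ang-II. With no filter that last count was 1, and it was 1 to 2 with a library left out. The interaction called 0 members with no filter and 0 with all 6 groups in the fit, and 0 to 1 with a library left out. In OE-Foxm1, quantile normalization called 1 member higher (Spred1), voom called 1 (Spry1), and leaving out a library 0 to 1.

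Changes of sign came from values near 0 that were not called. With si-Foxm1, quantile normalization and median-of-ratios scaling gave Spry4 -0.063 and -0.054, and Spred1 -0.030 and -0.057. With Ang-II they gave Spry1 0.030 and 0.038, and median-of-ratios scaling gave Spry1 -0.037 in si-Foxm1+Ang-II against Ang-II. Quantile normalization gave Spred2 -0.019 in OE-Foxm1. With a library left out, Spry2 ran from -0.044 to 0.017 with si-Foxm1, from -0.094 to 0.0055 in si-Foxm1+Ang-II against Ang-II and from -0.086 to 0.014 in the interaction. Spry1 ran from -0.028 to 0.018 with Ang-II, and Spred2 from -0.011 to 0.025 in OE-Foxm1. Dusp1 ran from -0.063 to 0.055 in si-Foxm1+Ang-II against si-Foxm1 and from -0.23 to 0.00012 in the interaction. The cause of these shifts was not tested.

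Same-numbered libraries deviated together by a correlation of -0.04 to 0.18, mostly above 0. Differently numbered ones gave -0.16 to 0.13, mostly below 0. Deviations were taken from group means, so these lean below 0 wherever same-numbered ones lean above it, and are no separate observation. The main fit did not use the numbers as pairs, and whether they mark shared batches was not tested. With a replicate block, interaction calls over all genes went from 45 higher and 58 lower to 62 and 75. The replicate block changed 1 call, Spry4 in OE-Foxm1 (-0.15, adjusted p = 0.0510, limma), and no other call of the 10. The fit of only the compared groups was not run for the interaction, which uses all 4 groups, or for OE-Foxm1, whose fit holds only its groups. Quantile normalization split the called genes 3426 higher and 2969 lower with si-Foxm1, 2673 and 2302 with Ang-II, 3344 and 2880 in si-Foxm1+Ang-II against Ang-II, and 2419 and 2327 against si-Foxm1. Depth limits Dusp5 most, with 133 to 271 fragments a library.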
